A study of Mus musculus with 4 samples.

Results

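The myeloid identity genes described here were 10 genes that mark monocytes, macrophages and granulocytes: Cd68, Itgam, Csf1r, Cd14, Emr1, Lyz2, Ctss, Mpo, Spi1 and Cebpa. They were chosen by name, and every probe whose deposited gene symbol was one of these names was taken. This gave 17 probes of the 55681 gene probes on the array, and 10 of 24561 symbols. L1210 cells are mouse lymphocytic leukemia cells, labelled by strain as DBA subline 212. The cells were infected with lentivirus, and the GFP+ stably transfected cells were sorted and lysed for total RNA. The study's methods list a lentiviral vector with the EF1α promoter, and whether a line was grown from a single clone is not given in the sources used here. L1210-control received control overexpression, L1210-Fbxw11a received the full-length transcript of Fbxw11, an F-box protein that selects substrates for ubiquitination, L1210-Fbxw11c received the variant without the second exon, and L1210-Fbxw11d received the variant without the second and the third exon. Each line was measured on 1 Agilent 1-colour array, so no difference between lines had a replicate check and no p-value was computed.

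Myeloid identity is set up by a pair of transcription factors, PU.1, encoded by Spi1, and C/EBPα, encoded by Cebpa. They act on genes for surface receptors such as the receptor of colony-stimulating factor 1 (Csf1r) and the integrin chain CD11b (Itgam), and on genes for the degradative proteins of phagocytes. These proteins include lysozyme M (Lyz2), cathepsin S (Ctss), myeloperoxidase (Mpo) and the endosomal glycoprotein CD68. Lymphoid leukemia cells are classed by other genes, so the array gives a reading of which myeloid transcripts these lines held and whether the lines differed in them.

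Of the 17 probes, 10 were well above background on all 4 arrays, beside 59.4% of all gene probes, and 3 on none, beside 26.9%. Another 2 were so on 3 arrays and 2 on 1 array. By the brightest probe of each gene, Cd68, Itgam, Csf1r, Cd14, Emr1 and Cebpa were measured in every line, Mpo lay at the detection limit, Ctss was measured in L1210-Fbxw11d alone, and Lyz2 and Spi1 in no line. Among the member probes for which a fold was given, most differed by less than 2-fold between any pair of lines. The exceptions were 1 probe for Csf1r, lower in L1210-Fbxw11d than in each of the other lines, and both probes for Emr1.

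The probes that carry these statements are shown with their sequences as deposited. They are the 3 probes for Itgam, which differed widely in signal, both probes for Emr1, and the single probes for the undetected genes Lyz2 and Spi1. Probes are numbered by mean signal, brightest first. The first 30 bases are given for Itgam probe 1 and Emr1 probe 2 and all 60 bases for the others. Capitals mark a run of the repeated pair CA.
Itgam probe 1: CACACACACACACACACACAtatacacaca
Itgam probe 2: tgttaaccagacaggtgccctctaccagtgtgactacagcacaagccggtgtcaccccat
Itgam probe 3: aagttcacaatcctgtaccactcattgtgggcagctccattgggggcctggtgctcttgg
Emr1 probe 1: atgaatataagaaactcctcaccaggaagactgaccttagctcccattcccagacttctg
Emr1 probe 2: ggtgttccagaaattctcatttaataccca
Lyz2 probe 1: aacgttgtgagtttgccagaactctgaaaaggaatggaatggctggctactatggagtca
Spi1 probe 1: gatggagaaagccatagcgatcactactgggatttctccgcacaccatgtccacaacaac

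On the mm9 build used by the array files, Itgam probe 1 lies at chr7:135261755-135261814 and starts at base 4431 of its transcript. Itgam probe 2 lies at chr7:135212140-135212199 and starts at base 270, and Itgam probe 3 at chr7:135260275-135260334 starts at base 3410. Emr1 probe 1 lies at chr17:57620350-57620409, from base 2732 of its transcript, and Emr1 probe 2 at chr17:57622868-57622927, from base 3160. The Lyz2 probe lies at chr10:116719175-116719234. The Spi1 probe spans an exon junction, and its 60 bases reach over chr2:90939665-90953452. All of these positions are exonic, since each probe was placed on a transcript, and none was sorted here into coding or untranslated sequence.

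Probe signals were background-corrected by the scanner software, divided by the 75th percentile of their own array and multiplied by that of L1210-control. Values below are on this control scale unless named as a log2 ratio. Detection, written as well above background, follows the scanner's flag. Each member probe had 1 spot, and none was flagged as an outlier or saturated. The spread between single spots was read from 399 probes that the array carries on 10 spots each, and gave an SD for each log2 ratio. This SD holds the error of the array and leaves out the spread between cultures, sorts and RNA extractions. The 3 comparisons with L1210-control share the same control array. Since RNA came from whole cultures, fewer cells of a type and less RNA per cell cannot be told apart.

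The 4 arrays held 62.5% to 68.7% of probes well above background. L1210-Fbxw11d was alone on slide 2 and the other arrays shared slide 1, so for this line slide and variant cannot be told apart. Fbxw11 itself had a pair of probes, with log2 ratios to L1210-control of 0.31 and 0.21 in L1210-Fbxw11a, 0.27 and 0.22 in L1210-Fbxw11c and 0.03 and 0.18 in L1210-Fbxw11d. The array thus showed no overexpression of 2-fold or more, and whether these probes lie in the expressed sequence was not tested.

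**Figure D1:**
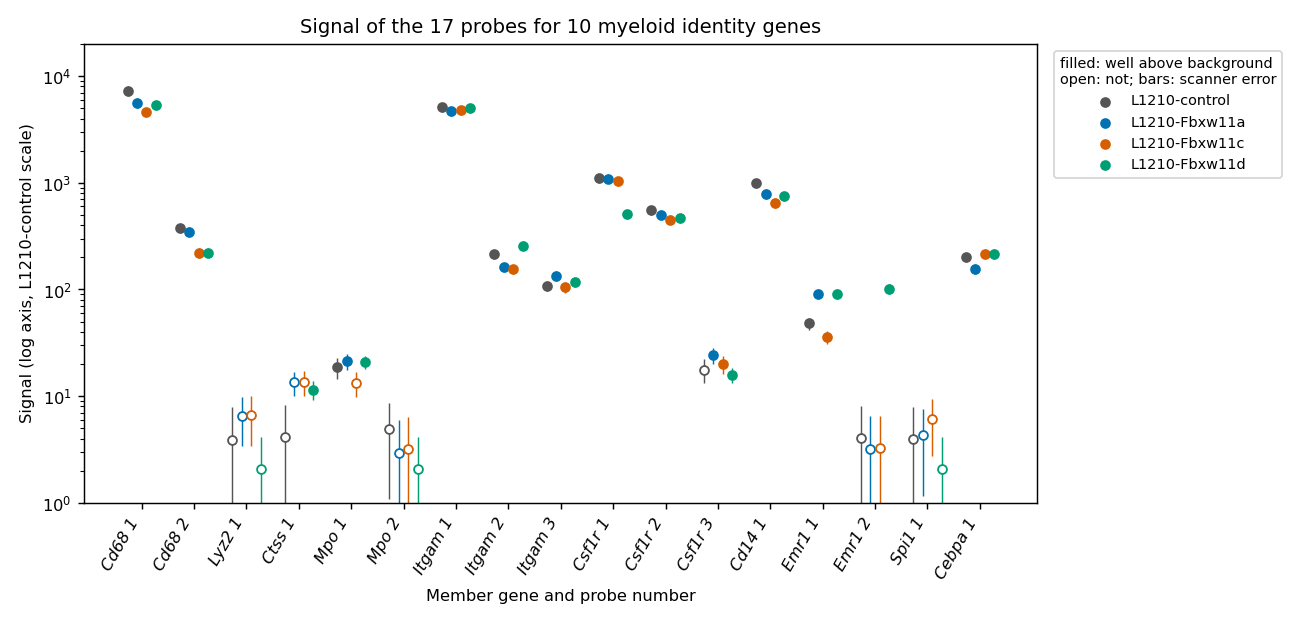
Signal of each member probe in the 4 lines on a log axis (control scale). Filled points were well above background, open points were not, and bars are the scanner's own error for the spot, running off the axis where the error is as large as the signal. Cd68 probe 1 and Itgam probe 1 lie between 4565 and 7276 in every line, while Lyz2, Mpo probe 2 and Spi1 have open points only.

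Spi1 encodes PU.1, and its probe was detected on no array. The signals were 3.97 in L1210-control against 4.35, 6.05 and 2.07 in the Fbxw11a, Fbxw11c and Fbxw11d lines, with scanner errors of 2.08 to 4.00. All 4 lay below the lowest signal of any probe called well above background on its array, which ran from 10.4 to 18.1. Only this junction was probed, so the result speaks for this stretch of the transcript.

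Cebpa encodes C/EBPα, which drives the granulocyte and monocyte programme, and its probe at chr7:35906517-35906576 was well above background in every line. The signals were 200.3, 156, 216 and 215 in the control, Fbxw11a, Fbxw11c and Fbxw11d lines. L1210-Fbxw11a was the lowest, with a log2 ratio of −0.36 and an SD of 0.19 between single spots. The ratios of 0.11 in L1210-Fbxw11c and 0.10 in L1210-Fbxw11d were smaller than their SDs of 0.17 and 0.20.

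Cd68 encodes a heavily glycosylated protein of late endosomes and lysosomes that is used as a macrophage marker. Cd68 probe 1, at chr11:69477775-69477834, gave 7276 in L1210-control against 5632, 4565 and 5341 in the Fbxw11a, Fbxw11c and Fbxw11d lines. Cd68 probe 2, at chr11:69478979-69479038, gave 375 in L1210-control against 348, 220.3 and 222 in the Fbxw11a, Fbxw11c and Fbxw11d lines. Both probes were highest in L1210-control, and none of the differences reached 2-fold. The log2 ratios of probe 1 were −0.37, −0.67 and −0.45 in the Fbxw11a, Fbxw11c and Fbxw11d lines, each more than 3 times its SD. The measured spots around it had median log2 ratios to L1210-control of 0.45, −0.14 and −0.03 in the same order. Whether the local shift in L1210-Fbxw11a bears on the probe was not tested. With median centring the ratio of probe 1 in L1210-Fbxw11d was −0.23, against an SD of 0.11. The log2 ratios of probe 2 were −0.11, −0.77 and −0.76 in the Fbxw11a, Fbxw11c and Fbxw11d lines. The probes agreed that Cd68 was lower in L1210-Fbxw11c by 1.59-fold and 1.70-fold and in L1210-Fbxw11d by 1.36-fold and 1.69-fold, while in L1210-Fbxw11a the difference of probe 2 lay within its SD of 0.12.

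Lysozyme M, the product of Lyz2, digests bacterial cell walls and is abundant in macrophages and neutrophils. Its probe gave 3.91, 6.58, 6.70 and 2.07 in the control, Fbxw11a, Fbxw11c and Fbxw11d lines, and no array flagged it as well above background. The probe for its near-identical copy Lyz1 was well above background on all 4 arrays, at 27.2 in L1210-control against 39.4, 34.0 and 37.0 in the Fbxw11a, Fbxw11c and Fbxw11d lines. Whether transcripts of one copy bind the probe of the other was not tested.

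Cathepsin S, the product of Ctss, trims the invariant chain in antigen-presenting cells. Its probe, at chr3:95360245-95360304, gave 4.12 in L1210-control against 13.6, 13.6 and 11.5 in the Fbxw11a, Fbxw11c and Fbxw11d lines. Only the last was flagged as well above background, although it was not the highest signal. The detection limits of the other arrays lay above it, so no fold was given.

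Myeloperoxidase, the product of Mpo, makes hypochlorous acid in neutrophil granules. Mpo probe 1, at chr11:87617840-87617899, gave 18.7, 21.2, 13.3 and 20.9 in the control, Fbxw11a, Fbxw11c and Fbxw11d lines, and only in L1210-Fbxw11c did it miss detection. The log2 ratios of 0.17 in L1210-Fbxw11a and 0.16 in L1210-Fbxw11d lay far inside their SDs of 0.67 and 0.78. Mpo probe 2 was detected on no array, with signals of 2.07 to 4.89. In L1210-Fbxw11c the bound was a log2 ratio of −0.33, also inside its SD of 0.83.

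Itgam encodes CD11b, the chain that pairs with the product of Itgb2 to form the complement receptor of myeloid cells. Itgam probe 1, the probe with the run of CA, gave 5119 in L1210-control against 4671, 4791 and 4978 in the Fbxw11a, Fbxw11c and Fbxw11d lines. Itgam probe 2 gave 215, 162, 155 and 258 in the same order of lines. Itgam probe 3 gave 108, 134, 104 and 116. Each probe was well above background in every line, and no difference reached 2-fold. The log2 ratios of the 3 probes were −0.13, −0.41 and 0.31 in L1210-Fbxw11a, with both signs among them. In L1210-Fbxw11c all were below 0, at −0.10, −0.47 and −0.05, and in L1210-Fbxw11d they were −0.04, 0.26 and 0.11, each within 1.5 times its SD. Probe 2 was the only one to separate a pair of lines by more than 3 times its SD, with log2 ratios of 0.67 for L1210-Fbxw11d over L1210-Fbxw11a (SD 0.19) and 0.73 over L1210-Fbxw11c (SD 0.18).

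A run of CA as long as 16 bases was found in 35 of the 55681 gene probes, Itgam probe 1 among them. All 35 were well above background on all 4 arrays, beside 59.4% of all gene probes. Over the other 34 probes, none was past 2-fold in any variant line, and their median log2 ratios to L1210-control were −0.20, −0.16 and −0.22 in the Fbxw11a, Fbxw11c and Fbxw11d lines. The part of the repeat in the signal of Itgam probe 1 was not tested. Itgam was also well above background by its other probes, which hold no such run.

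The partner gene Itgb2 was well above background in every line, at 4551 in L1210-control against 4731, 4592 and 6299.8 in the Fbxw11a, Fbxw11c and Fbxw11d lines. Itgax, the CD11c chain of dendritic cells that shares this partner, was detected on no array.

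Csf1r encodes the receptor tyrosine kinase that binds colony-stimulating factor 1 and interleukin 34 and keeps macrophages alive. Csf1r probe 1, at chr18:61290725-61290784 and from base 3806 of the transcript, gave 1104, 1097, 1030.0 and 507 in the control, Fbxw11a, Fbxw11c and Fbxw11d lines. The first 3 lines lay close together and L1210-Fbxw11d stood 2.18-fold below L1210-control, with a log2 ratio of −1.12 and an SD of 0.12 between single spots. It was also 2.16-fold below L1210-Fbxw11a and 2.03-fold below L1210-Fbxw11c. When arrays were centred on their median instead of the 75th percentile, the log2 ratios to L1210-control, L1210-Fbxw11a and L1210-Fbxw11c were −0.90, −0.90 and −0.88, short of 2-fold. With the deposited values that to L1210-Fbxw11c was −0.999, also just short. Csf1r probe 2, at chr18:61278661-61278720 and from base 1841 of the same transcript, gave 552, 502, 453 and 463 in the same order. There the log2 ratio of L1210-Fbxw11d was −0.26 with an SD of 0.12, and its value lay above that of L1210-Fbxw11c. Probe 3, over the exon junction at chr18:61289398-61289758, lay at the detection limit with signals of 15.8 to 24.3. The 2-fold difference thus rested on 1 spot of 1 probe on the array of slide 2, and the probe in the middle of the transcript did not show it.

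Cd14 encodes the co-receptor that passes lipopolysaccharide to the receptor TLR4, and its probe lies at chr18:36884969-36885028. The signals were 987 in L1210-control against 790.3, 649 and 751 in the Fbxw11a, Fbxw11c and Fbxw11d lines. L1210-control was the highest, and the log2 ratios of −0.32, −0.60 and −0.39 in the variant lines were each more than 3 times their SDs of 0.10, 0.09 and 0.12. With median centring that of L1210-Fbxw11d was −0.18, against an SD of 0.12. None reached 2-fold. The genes of the same receptor complex, Tlr4 and Ly96, were well above background in every line, with signals of 429 to 579 for Tlr4 and 1813 to 2222 for Ly96.

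Emr1, now named Adgre1, encodes the adhesion receptor F4/80 of mouse macrophages. Emr1 probe 1 gave 48.3 in L1210-control against 90.9, 35.6 and 90.9 in the Fbxw11a, Fbxw11c and Fbxw11d lines, each well above background. The lines formed a higher pair, L1210-Fbxw11a and L1210-Fbxw11d, and a lower pair. Against L1210-control the log2 ratios were 0.91 in L1210-Fbxw11a (SD 0.36), −0.44 in L1210-Fbxw11c (SD 0.49) and 0.91 in L1210-Fbxw11d (SD 0.38), all short of 2-fold. With quantile normalization, median centring and the deposited values the ratio in L1210-Fbxw11d was 1.10, 1.13 and 1.10, past 2-fold, and with the normexp correction, a model of local background with an added offset, it was 0.29. L1210-Fbxw11c was 2.55-fold below L1210-Fbxw11a, and L1210-Fbxw11d was 2.55-fold above L1210-Fbxw11c. With normexp these log2 ratios were −0.73 and 0.56, and neither was past 2-fold. The added offset of 50 by itself shrinks large ratios of dim probes, here and in the normexp values below.

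Emr1 probe 2, which lies further along the same transcript, gave 4.07, 3.23, 3.27 and 101 in the control, Fbxw11a, Fbxw11c and Fbxw11d lines. Only L1210-Fbxw11d was well above background. This was at least 5.60-fold higher than in L1210-control. The bounds were at least 7.05-fold higher over L1210-Fbxw11a and 6.81-fold over L1210-Fbxw11c, each taken against the lowest signal called well above background on the dimmer array. The probes disagreed for L1210-Fbxw11a, which matched L1210-Fbxw11d by probe 1 and was not well above background by probe 2. The spot behind the L1210-Fbxw11d value had a pixel SD of 74.3 at a mean of 193 over 43 pixels, and the scanner did not flag it. The 15 measured spots around it had a median log2 ratio to L1210-control of −0.09. The normexp correction lowered the bound to a log2 ratio of 0.92.

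**Figure D2:**
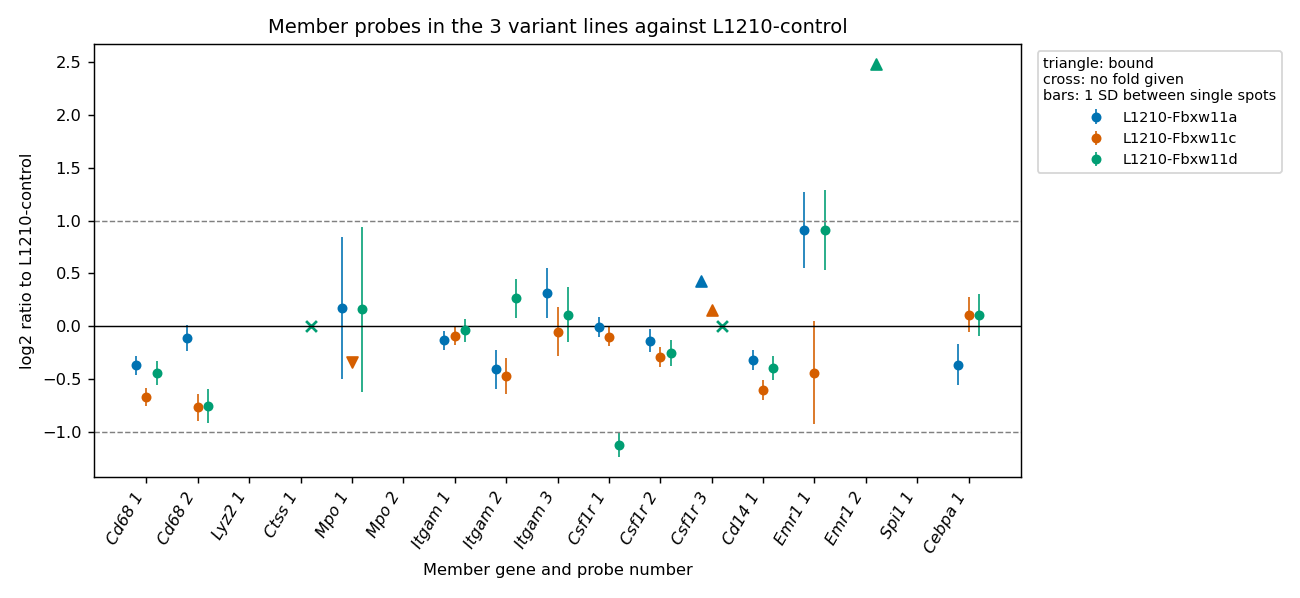
Log2 ratio of each member probe to L1210-control in the 3 variant lines. Circles are measured ratios with bars of 1 SD between single spots, triangles are bounds where 1 array was not well above background, crosses mark probes where no fold was given, and dashed lines stand at 2-fold. Only Csf1r probe 1 and Emr1 probe 2, both in L1210-Fbxw11d, lie outside the dashed lines.

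Counted over all members, no probe of the 12 measured was past 2-fold in L1210-Fbxw11a, beside 5.13% of all probes measured in that comparison. In L1210-Fbxw11c the count was again 0 of 12, beside 4.47% of all probes. In L1210-Fbxw11d 1 of 14 was higher, beside 0.985% of all probes, and 1 of 14 was lower, beside 5.99%. Between the variant lines, 1 of 12 was lower in L1210-Fbxw11c than in L1210-Fbxw11a, beside 3.14%. For L1210-Fbxw11d over L1210-Fbxw11a, 1 of 14 was higher and 1 lower, beside 1.05% and 6.29%, and for L1210-Fbxw11d over L1210-Fbxw11c 2 were higher and 1 lower, beside 0.875% and 4.38%. The 2 higher in this last comparison were both probes of Emr1, and no difference between these counts and the shares of all probes was tested.

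In L1210-Fbxw11d the share of higher probes among all probes past 2-fold depended on the scaling. It was 14.1% with the 75th percentile, 4.09% with normexp, 29.97% with quantile normalization, 35.6% with median centring and 30.1% with the deposited normalized values. In L1210-Fbxw11c it was 37.9% with the 75th percentile and 25.6% with normexp. Centring on the median raised the median log2 ratio of all probes in L1210-Fbxw11d from −0.01 to 0.21.

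Over the member probes well above background on both arrays, 8 of 11 were below L1210-control in L1210-Fbxw11a, 9 of 10 in L1210-Fbxw11c and 6 of 11 in L1210-Fbxw11d. Of all probes measured on both arrays, 52.1%, 50.6% and 50.8% were below in the same order. The median log2 ratios of the members were −0.13, −0.36 and −0.04, and those of all probes were −0.011, −0.0031 and −0.0072. The 3 comparisons use 1 control array, and several members had more than 1 probe, so these counts are not independent of each other.

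The detection of the members was close to that of the array as a whole. By the brightest probe of each gene, 7 of 10 members were detected in L1210-control and 7, 6 and 8 in the Fbxw11a, Fbxw11c and Fbxw11d lines. The shares of all genes were 68.7%, 71.6%, 70.4% and 73.7%. On all 4 arrays these were 6 of 10 members and 66.2% of all genes.

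Promoters of 6 members were found among the RefSeq sequences, each from 250 bases before to 50 bases after the start of the gene on GRCm38.p6. They were searched on both strands for GAGGAA, the core that PU.1 binds, written TTCCTC on the other strand. The promoters of Cd68, Itgam, Ctss and Mpo held it and those of Lyz2 and Cebpa did not, which is 4 of 6 beside 28.3% of 32851 mouse promoters of this length. The C/EBP site TTGCNNAA was found in the Cd68 promoter alone, beside 10.8% of all promoters. The promoters of Cd68 and Itgam, measured in every line, and of Ctss, at the detection limit, are shown with GAGGAA and its reverse complement in capitals. A match is a description of the letters, and binding was not measured.
Cd68 promoter, chr11:69666121-69666420, minus strand: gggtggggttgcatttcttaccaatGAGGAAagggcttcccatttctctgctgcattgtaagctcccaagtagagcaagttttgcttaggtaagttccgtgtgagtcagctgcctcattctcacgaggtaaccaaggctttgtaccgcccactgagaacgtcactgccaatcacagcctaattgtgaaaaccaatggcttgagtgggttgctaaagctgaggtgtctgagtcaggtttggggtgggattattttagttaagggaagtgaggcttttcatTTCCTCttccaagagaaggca
Itgam promoter, chr7:128062390-128062689, plus strand: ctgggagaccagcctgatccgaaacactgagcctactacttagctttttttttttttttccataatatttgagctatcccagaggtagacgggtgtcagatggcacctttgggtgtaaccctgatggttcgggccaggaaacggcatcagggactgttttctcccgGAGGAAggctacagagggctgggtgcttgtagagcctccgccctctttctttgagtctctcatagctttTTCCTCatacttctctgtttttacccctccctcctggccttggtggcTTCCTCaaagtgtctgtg
Ctss promoter, chr3:95526536-95526835, plus strand: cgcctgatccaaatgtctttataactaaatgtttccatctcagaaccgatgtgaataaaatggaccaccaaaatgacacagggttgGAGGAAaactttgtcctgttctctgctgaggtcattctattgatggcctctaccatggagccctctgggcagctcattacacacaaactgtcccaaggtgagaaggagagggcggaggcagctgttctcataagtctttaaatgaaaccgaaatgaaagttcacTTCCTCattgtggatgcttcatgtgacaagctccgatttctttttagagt

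In the Cd68 promoter the matches begin at −225 and 29, counted from the start of the gene at 0. In the Itgam promoter they begin at −84, −15 and 32, and in the Ctss promoter at −164 and 0. The promoters with the core thus belonged to genes that were measured in every line and to genes at the detection limit alike.

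Further genes of the myeloid programme were taken from 5 lists of 82 genes in all, counted by the brightest probe of each gene. Of these, 52 were detected on all 4 arrays and 17 on none. Past 2-fold, 3 were higher and 5 lower of 59 in L1210-Fbxw11a, beside 2.43% and 2.02% of all genes. In L1210-Fbxw11c 0 were higher and 5 lower of 57, beside 1.61% and 2.27%, and in L1210-Fbxw11d 0 were higher and 4 lower of 62, beside 1.05% and 4.70%. Genes past 2-fold in the same direction in all 3 lines were found in the list of ligands and in none of the other 4 myeloid lists.

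**Figure D3:**
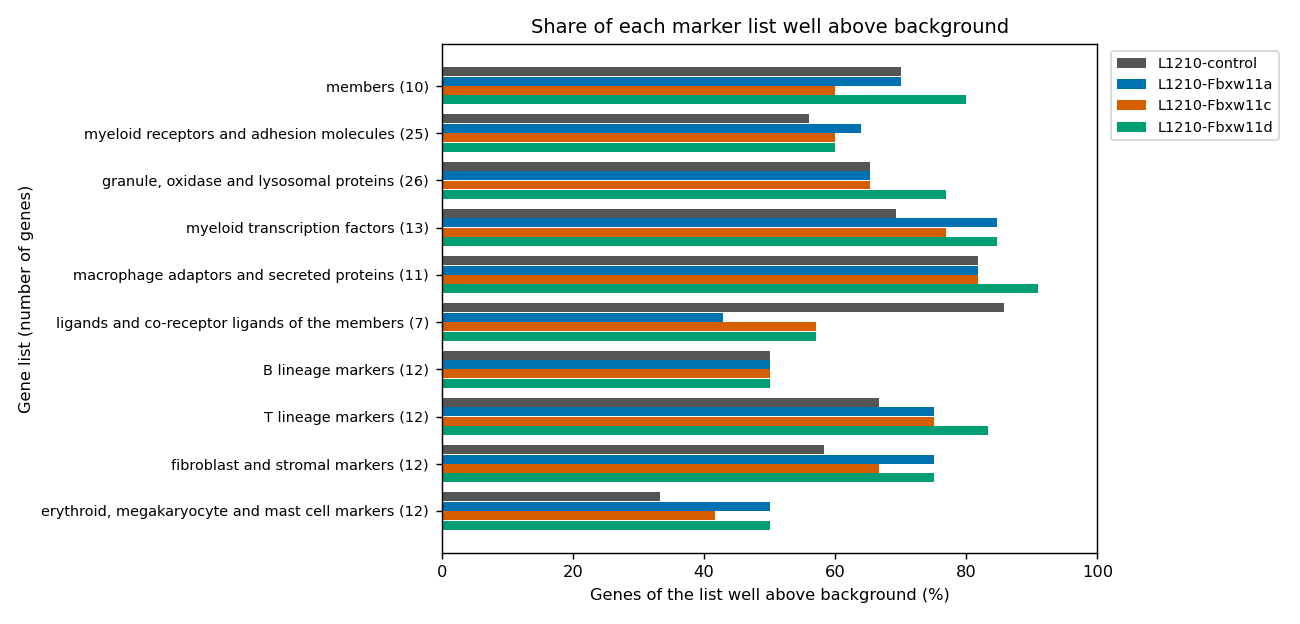
Percent of the genes of each list that were well above background in the 4 lines, by the brightest probe of each gene. Members ran from 60% to 80%, and the B lineage list stood at 50% in every line.

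The list of ligands held 7 genes, and of the 6 measured 3 were past 2-fold lower in all 3 variant lines. Of all genes measured in the 3 comparisons, 1.34% were lower in this way and 0.214% higher. The list was chosen with earlier results of these data known, so its share beside these is no independent check. Csf3 and Lbp were well above background in L1210-control alone, so their ratios could only come out lower or unchanged. Csf2, the cytokine GM-CSF, gave 74.7 in L1210-control, 9.41 in L1210-Fbxw11a, where it was not well above background, 22.5 in L1210-Fbxw11c and 18.4 in L1210-Fbxw11d. It was lower by at least 5.20-fold, by 3.31-fold and by 4.05-fold in the same order. Csf3, the granulocyte factor G-CSF, gave 76.3 in L1210-control and was not well above background in the variant lines, at 5.76, 3.25 and 2.77. The bounds were at least 5.31-fold, 5.14-fold and 7.34-fold lower.

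Lbp, the serum protein that hands lipopolysaccharide to CD14, gave 39.1 in L1210-control and was not well above background in the variant lines, at 2.95, 15.8 and 9.48. It was lower by at least 2.72-fold, 2.47-fold and 3.76-fold. With normexp the log2 ratios of Csf2, Csf3 and Lbp ran from −0.53 to −1.52, and none of these genes was past 2-fold in all 3 lines. Past 2-fold there were Csf2 in L1210-Fbxw11d, Csf3 in the Fbxw11c and Fbxw11d lines and Lbp in L1210-Fbxw11d. The offset of 50 lies within the range of the control signals of these genes, so a loss of 2-fold with normexp does not test their ratios. The ligands of the Csf1r receptor were well above background in every line, with signals of 2717 in L1210-control and 1786 to 2207 in the variant lines for Csf1 and of 1008 to 1419.7 for Il34, and neither was past 2-fold. Icam1, a ligand of CD11b, was detected on no array.

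**Figure D4:**
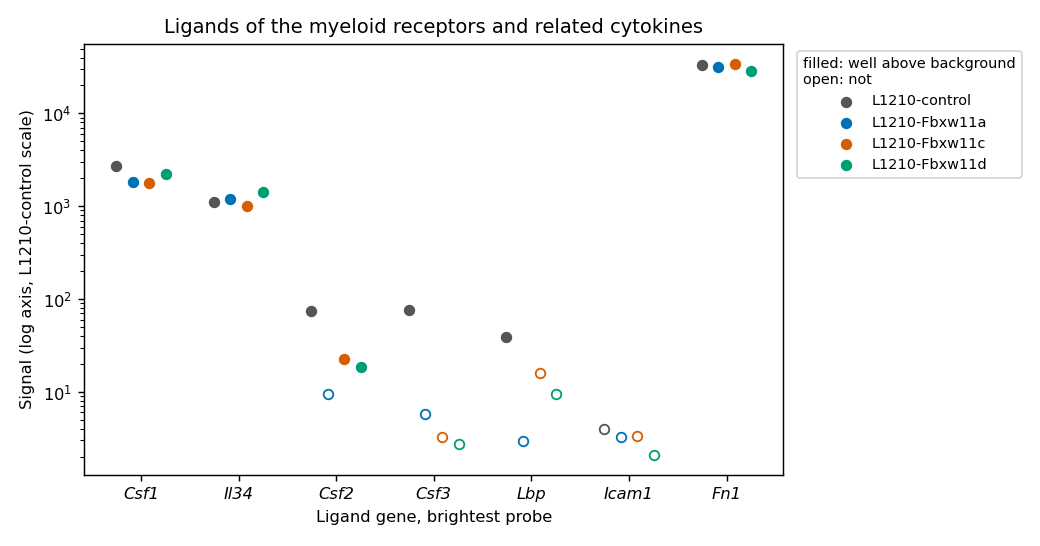
Signal of the 7 ligand genes in the 4 lines on a log axis (control scale). Filled points were well above background and open points were not. Csf2, Csf3 and Lbp are highest in L1210-control, and Csf3 and Lbp have a filled point in that line alone.

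The list of receptors held 25 genes, of which 14 were detected on all 4 arrays and 8 on none, and none was past 2-fold. The largest difference between values well above background was that of Mertk, a receptor for the uptake of dying cells, with a log2 ratio of 0.84 in L1210-Fbxw11d. With quantile normalization, median centring and the deposited values it was 1.06, 1.06 and 1.05, past 2-fold, and with normexp it was −0.07. Csf3r, the G-CSF receptor, was well above background in every line, at 43289 to 59142, and so were Ly6g and Ly6c1. The Fc receptor genes Fcgr1 and Fcgr3 and the scavenger receptor genes Msr1 and Cd163 were detected on no array.

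The list of granule, oxidase and lysosomal genes held 26 genes, with 17 measured on all 4 arrays and 6 on none. Ncf4, which encodes a cytosolic subunit of the phagocyte oxidase, gave 273 in L1210-control against 66.2, 203 and 140.5 in the Fbxw11a, Fbxw11c and Fbxw11d lines, and was past 2-fold in L1210-Fbxw11a with a log2 ratio of −2.05. Cybb, the catalytic subunit of the oxidase, was detected on no array. Lcn2, a siderophore-binding protein, was past 2-fold in L1210-Fbxw11c at −1.22. With normexp Ncf4 had a log2 ratio of −1.38 in L1210-Fbxw11a, while Lcn2 at −0.96 in L1210-Fbxw11c fell short of 2-fold.

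The list of transcription factors held 13 genes, with 9 measured on all 4 arrays and 1 on none. Its 3 genes past 2-fold were all higher in L1210-Fbxw11a. Gfi1, a repressor needed by neutrophils, gave 5.82 in L1210-control and 52.2 in L1210-Fbxw11a, at least 2.89-fold higher. It was also well above background in the Fbxw11c and Fbxw11d lines, at 24.5 and 23.5, where the bounds were short of 2-fold. Cebpe, of late granulocytes, gave 65.2 in L1210-control against 151, 118 and 107.3 in the Fbxw11a, Fbxw11c and Fbxw11d lines, with log2 ratios of 1.21, 0.85 and 0.72. With normexp the log2 ratios of Gfi1 and Cebpe in L1210-Fbxw11a were 0.51 and 0.76, and neither was past 2-fold. Spib, the relative of Spi1 in B cells, was detected on no array.

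The list of adaptors and secreted proteins held 11 genes, with 9 measured on all 4 arrays and 1 on none. Tyrobp, the adaptor DAP12, was past 2-fold in L1210-Fbxw11a, with log2 ratios of −1.27, −0.65 and 0.91 in the Fbxw11a, Fbxw11c and Fbxw11d lines. With normexp it was −0.61 in L1210-Fbxw11a. In L1210-Fbxw11d it was past 2-fold higher with quantile normalization, median centring and the deposited values, at 1.05, 1.13 and 1.06.

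The label of a lymphocytic line was set against 4 lists of 12 marker genes of other cell types. Of the B lineage list, 6 genes were well above background on all 4 arrays, among them Blnk, Cd22 and Cd79a, and 6 on none, which were Cd79b, Ebf1, Ms4a1, Igll1, Rag1 and Rag2. Its summed signal was 18808 in L1210-control against 23616, 22897 and 21413 in the Fbxw11a, Fbxw11c and Fbxw11d lines. Of the T lineage list, 8 were measured on all 4 arrays, among them Cd3e and Cd4, and 2 on none, Cd3d and Cd3g, with summed signals of 4886, 5108, 5019.9 and 4727. Cd28, a costimulatory receptor of T cells, was past 2-fold lower in all 3 variant lines, with log2 ratios of −1.17, −1.17 and −1.37. With normexp it was past 2-fold in L1210-Fbxw11d alone, at −1.22. The defining genes of neither lymphoid lineage were thus measured as a whole.

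Of the fibroblast and stromal list, 7 were measured on all 4 arrays and 2 on none, with summed signals of 115955, 171203, 185284 and 157490.0. Most of each sum came from 1 bright probe, that of Sparc, a matrix glycoprotein, at 81523, 136277, 146584 and 124387. Col1a2, a chain of type I collagen, was past 2-fold higher in all 3 variant lines, with log2 ratios of 1.45, 2.10 and 2.05. The median log2 ratios of the list were 0, 0.22 and 0.17. Of the erythroid, megakaryocyte and mast cell list, 4 were measured on all 4 arrays and 5 on none, with sums of 2871, 2323, 2693 and 3698. Epor, the erythropoietin receptor, made up most of these sums, at 2657, 1892, 2377 and 3370. The median log2 ratios of the list were positive, at 0.59, 0.46 and 0.31, so in the Fbxw11a and Fbxw11c lines the sum and the median had opposite directions. Hba-a1, an alpha-globin gene, was past 2-fold higher in all 3 variant lines, with log2 ratios of 1.13, 1.08 and 1.11, and with normexp in none. The summed signal of the members' brightest probes was 14764.5, 12483, 11326 and 11920.5 in the control, Fbxw11a, Fbxw11c and Fbxw11d lines. Most of it came from Cd68 probe 1 and Itgam probe 1. The stromal sum was lowest where the member sum was highest, both sums resting on a few bright probes, and its part in the results was not tested.

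**Figure D5:**
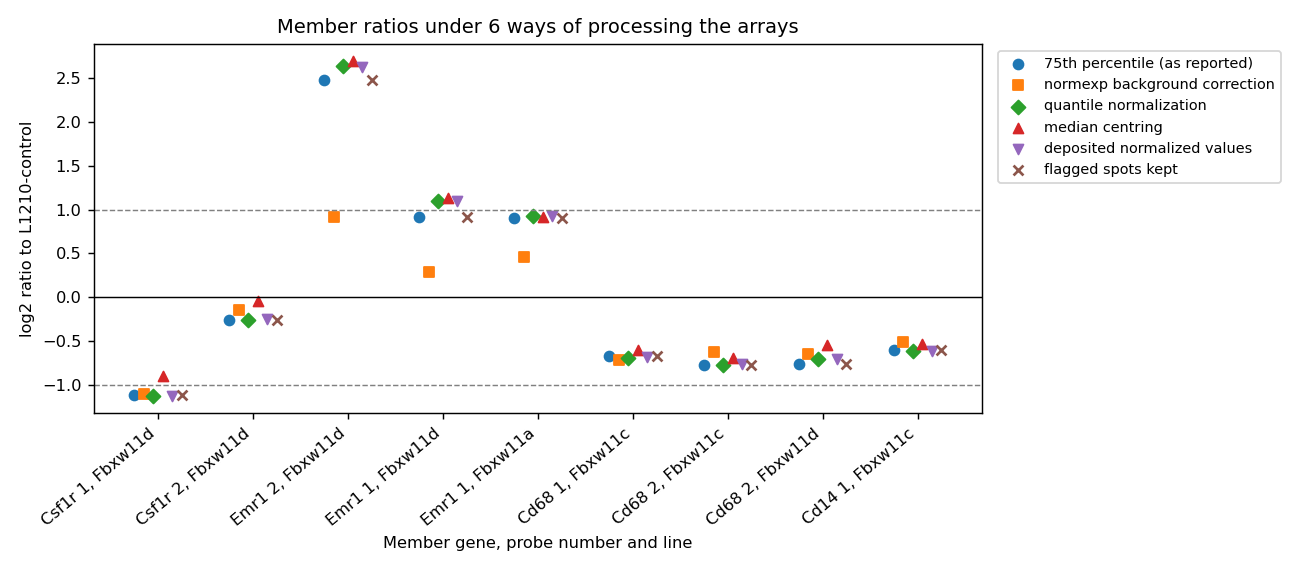
Log2 ratio to L1210-control of the member probes with the largest differences under 6 ways of processing the arrays. Dashed lines stand at 2-fold. Emr1 probe 2 falls from 2.48 to 0.92 with normexp, Csf1r probe 1 moves inside the line with median centring at −0.90, and the Cd68 and Cd14 ratios stay between 0 and −1.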

How the data were processed

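Total RNA of 4 L1210 lines was labelled with Cy3 and hybridised to 1 array per line. The authors deposited the scanner output, with a background-corrected signal intensity per spot, and 1 table of the same signals with log2 values normalized across the arrays by a method not given in the sources used here. The file headers name Feature Extraction 10.7.1.1, and the submitters' processing notes name 9.1. Control spots and outlier spots (102 to 167 per array) were left out, log2 intensity was centred on the 75th percentile of each array, and replicate spots were averaged. A probe was measured in a comparison if at least 0.5 of its spots were well above background on either array. A dim side was set to the higher of its own signal and the lowest signal called well above background, and no fold was given where this left none. The call was 2-fold, the fold threshold of the study's methods. In simulated data 200 of 200 changed probes were recovered, each given a log2 change of 2, and 534 of 55478 unchanged ones were called. That change lies above the 2-fold call, so the recovery of differences near 2-fold was not tested. All probes of the members were to be named, and from each list up to 4 genes past 2-fold in the same direction in all 3 lines, or else the most changed gene. Other genes were named after their values were seen. Some genes of the lists are counted but not reported here by name. The members and lists were chosen with earlier results of these data known. The number of arrays limits the precision. Computations used R 4.3.3, limma 3.58.1, Python 3.11.15, numpy 2.4.6 and pandas 2.3.3.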

Additional observations from a re-analysis of the deposited data

How the results depend on the processing

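No paired analysis was possible because each line had 1 array, and no array could be left out. A slide block could not be fitted, since slide 2 held L1210-Fbxw11d alone. With normexp (offset 50), the count of member probes past 2-fold and higher in L1210-Fbxw11d than in L1210-control went from 1 to 0, that lower in L1210-Fbxw11c than in L1210-Fbxw11a from 1 to 0, and that higher in L1210-Fbxw11d than in L1210-Fbxw11c from 2 to 1. The further myeloid genes went from 3 to 0 higher and 5 to 1 lower in L1210-Fbxw11a, and from 5 to 1 lower in L1210-Fbxw11c. The offset by itself shrinks large ratios of dim probes, so losses among them with normexp are no separate test. With quantile normalization, median centring and the deposited normalized values, 2 member probes were higher in L1210-Fbxw11d than in L1210-control, both of Emr1. With each of these settings 2 further myeloid genes were also higher there. With median centring 0 member probes were lower in L1210-Fbxw11d than in each other line, and with the deposited values 0 than in L1210-Fbxw11c. Without the filter on dim probes, 1 member was higher in L1210-Fbxw11a, 1 higher in L1210-Fbxw11c and 2 higher and 2 lower in L1210-Fbxw11d than in L1210-control, and 3 were lower in L1210-Fbxw11d than in L1210-Fbxw11a and in L1210-Fbxw11c. With both arrays required to be well above background, 0 were higher in L1210-Fbxw11d than in L1210-control or L1210-Fbxw11a and 1 than in L1210-Fbxw11c. At 1.5-fold, 1 was higher in L1210-Fbxw11a, 3 lower in L1210-Fbxw11c and 2 higher and 2 lower in L1210-Fbxw11d than in L1210-control, 2 were lower in L1210-Fbxw11c than in L1210-Fbxw11a, and 2 were higher and 3 lower in L1210-Fbxw11d than in L1210-Fbxw11a. At 3-fold, 0 were lower in any of these comparisons and 1 was higher in L1210-Fbxw11d than in L1210-Fbxw11c. The cause of the other changes in these counts was not tested. The alternatives for genes other than the members and for ratios between variant lines were chosen after seeing the data. Of 205 member ratios to L1210-control recomputed, 10 changed sign, none of them past 2-fold. Averaging the probes of Csf1r gave −0.46 in L1210-Fbxw11d. The flag of the deposited table and a demand that every spot be well above background left the detection counts as they were. The spread between spots widened toward low signal, up to SDs of 0.64 to 0.91 at signals of 8.6 to 9.5. This limits the values of Emr1, Mpo and Ctss. In the dimmest of 10 brightness bins, at signals of 2.1 to 3.9, the SDs fell to 0.07 to 0.13. A small SD there does not show a firm ratio.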
